A study of Mus musculus with 8 samples.

Results

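The late risers are 77 protein-coding genes from a time course of Klf4 induction in mouse leukaemia cells. Their RNA had risen little or not at all by 6 h and was clearly higher at 24 h. The genes were chosen from the measured values. Each had a 24 h mean of at least 3 CPM (a gene's count scaled by the library's total of counts assigned to genes) and over 3 counts at 0 h in sum. With 0.5 CPM added to each mean, the 6 h mean had to be less than 25% above the 0 h mean and the 24 h to 0 h ratio at least 1.8, with both 24 h libraries above both 0 h libraries. Of 9951 protein-coding genes that met the limits on level, 386 reached the 24 h ratio, and all 386 had separated libraries. The 6 h ceiling and the symbol filter then left 77. The filter leaves out symbols that begin with Klf, Egr, Jun, Fos, Nr4a, Ly6 or Hist1, and it removed 4 genes that otherwise qualified, Egr1, Fosb, Klf2 and Hist1h1c. Because the 0 h, 6 h and 24 h libraries chose the genes, the 6 h and 24 h differences from 0 h are given as descriptions and support nothing.

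The cells were GFP+ acute myeloid leukaemia cells driven by the MLL-AF9 fusion, sorted from bone marrow of leukaemic mice of the strain labelled C57BL/7. They carried TetO-Klf4, a Klf4 transgene under a doxycycline-controlled promoter, in every library, the 0 h libraries included. RNA was sequenced in 4 groups, labelled 0h, 6h, 12h and 24h, with 2 libraries per time point and 8 in all. What starts the clock of the hours, and whether the 2 libraries of a time came from separate mice, is not given in the labels. The p-values therefore cover no more than the variation from library to library, and that variation may be technical. No library of cells lacking the transgene was analysed here, so time, doxycycline and Klf4 cannot be told apart.

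KLF4 is a zinc-finger transcription factor that binds CACCC-type and GC-rich sites, and in myeloid cells it is known for its part in monocyte differentiation. When a transcription factor is switched on, some genes respond at once and others only after further RNAs and proteins have been made, so a time course separates early from late changes. Dusp1 and Zfp36, which dampen signalling and mRNA stability, are textbook immediate early genes that respond quickly to many stimuli, while Cybb, Trem1 and Ltf encode surface and granule proteins of mature myeloid cells.

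Klf4 itself, the induced gene, stood at 2.65 and 4.27 CPM at 0 h, then 152 and 149 (6 h), 116 and 113 (12 h), and 78.0 and 80.0 (24 h). It was highest at 6 h, the time at which the rule held the late risers under a ceiling, and lower at 12 h and 24 h. The libraries held 20394546 to 26041347 counts assigned to genes. Ptprc (316 to 365 CPM), Hoxa9 (391.6 to 463 CPM) and Meis1 (104 to 123 CPM) were present in every library of these leukaemia cells. The share of fragments assigned to no gene was higher at the later times, going from 5.47% ± 0.316 (SD, n = 2) at 0 h to 9.15% ± 0.167 at 24 h, and its part in the results was not tested.

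The promoters of 3 late risers called only from 6 h to 12 h and 3 called only from 12 h to 24 h are printed to show the sequence beside the start sites of genes with different timing. For each kind they are the genes with the smallest p (6 h to 12 h) or the largest step (12 h to 24 h) among those whose printed stretch touches no annotated exon. Each is the 200 bases before the RefSeq start, on the gene's strand, in GRCm38.p6. Capitals mark CACCC or its reverse complement, and the longer KLF-type motif GGGNGTGG or its reverse complement. Those called from 6 h to 12 h are Rnf225 (chr7:12927216-12927415, plus strand), Hoxa2 (chr6:52164832-52165031, minus strand) and Prex1 (chr2:166713833-166714032, minus strand).
Rnf225: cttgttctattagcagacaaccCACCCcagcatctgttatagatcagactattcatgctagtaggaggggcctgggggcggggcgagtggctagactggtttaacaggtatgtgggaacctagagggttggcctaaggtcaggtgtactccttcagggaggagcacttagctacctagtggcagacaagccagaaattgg
Hoxa2: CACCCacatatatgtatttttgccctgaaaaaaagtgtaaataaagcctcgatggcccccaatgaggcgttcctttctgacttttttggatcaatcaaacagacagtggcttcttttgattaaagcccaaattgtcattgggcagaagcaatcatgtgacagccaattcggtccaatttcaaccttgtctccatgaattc
Prex1: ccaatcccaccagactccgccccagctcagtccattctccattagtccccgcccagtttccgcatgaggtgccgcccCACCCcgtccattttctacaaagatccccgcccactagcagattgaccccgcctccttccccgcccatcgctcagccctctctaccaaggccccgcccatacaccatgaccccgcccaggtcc
Those called from 12 h to 24 h are Cybb (chrX:9469325-9469524, minus strand), Cd300lf (chr11:115133993-115134192, minus strand) and Paqr3 (chr5:97111597-97111796, minus strand).
Cybb: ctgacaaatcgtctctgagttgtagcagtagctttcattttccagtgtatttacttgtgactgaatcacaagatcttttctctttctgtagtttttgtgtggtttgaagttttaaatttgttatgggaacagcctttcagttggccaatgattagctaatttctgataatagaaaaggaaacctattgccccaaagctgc
Cd300lf: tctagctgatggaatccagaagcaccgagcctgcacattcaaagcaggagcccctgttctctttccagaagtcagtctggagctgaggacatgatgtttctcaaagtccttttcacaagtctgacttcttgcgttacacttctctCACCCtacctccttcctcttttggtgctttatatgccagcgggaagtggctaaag
Paqr3: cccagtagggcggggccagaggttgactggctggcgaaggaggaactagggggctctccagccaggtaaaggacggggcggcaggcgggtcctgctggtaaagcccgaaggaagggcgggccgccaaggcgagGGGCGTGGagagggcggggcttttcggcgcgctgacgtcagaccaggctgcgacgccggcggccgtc
Rnf225, Hoxa2, Prex1 and Cd300lf each hold 1 CACCC core, Paqr3 holds 1 GGGNGTGG motif, and the Cybb stretch holds neither.

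The late risers were mostly scarce RNAs. Their median level was 3.95 CPM in the 0 h libraries, then 4.49, 7.74 and 9.45 CPM at the later times. Together they took 0.1002% and 0.1004% of all gene counts in the 0 h libraries and 0.204% in each 24 h library. The median 24 h to 0 h ratio was 1.95, with a range of 1.803 to 4.64, and the median 6 h ratio was 1.14, with a range of 0.750 to 1.249. The smallest count of any member in any library was 17, and all 77 passed the filter on low counts.

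The thresholds pass through a continuous distribution. At the 24 h ratio of 1.8, Lipe (1.803), Stx11 (1.81) and Atat1 (1.81) lay just inside, and Psph (1.797), Rassf4 (1.796) and Otub2 (1.792) just outside. At the 6 h ceiling, Stx11 (1.249), Inpp5a (1.248) and Ptprj (1.247) were just inside, and Phf1 (1.252), Slc3a2 (1.254) and Cryzl1 (1.259) just outside.

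The rule set a ceiling on the 6 h level, and it does not make the members flat at 6 h. Their median log2 fold change from 0 h to 6 h was 0.18, beside -0.004 over all genes tested. With 2 libraries per time, a member that was not called is not thereby shown to be flat. With edgeR's quasi-likelihood test and Benjamini-Hochberg adjustment, 10 of 77 passed the threshold of 0.05 as higher at 6 h than at 0 h and 0 as lower, beside 9.74% and 8.58% of all 14263 genes tested. The rule used this contrast, so nothing is read from the count. The count was 5 without 0 h replicate 1, 3 without 0 h replicate 2, 5 without 6 h replicate 1, 6 without 6 h replicate 2 and 3 with DESeq2. The 10 were Tmsb10, Prex1, Kmt2d, Papolg, Dgkg, Inpp5a, Stx11, Fam193b, Ptprj and Cd9. Tmsb10, an actin-sequestering thymosin, had a 6 h ratio of 1.246. In 40 members both 6 h libraries lay above both 0 h libraries (32.8% of all genes), in 6 both lay below (22.6%), and in 31 they overlapped.

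The 12 h libraries are the only ones that took no part in the choice of genes, so they show when the rise came. Each 12 h comparison still shares its other libraries with the rule, and how far that moved the counts was not tested. At 12 h, 57 of 77 late risers were higher than at 6 h and 2 lower (adjusted p under 0.05), beside 10.9% higher and 9.79% lower among all genes tested. Both 12 h libraries lay above both 6 h libraries in 72 members, beside 34.5% of all genes, and below in 2, beside 23.2%. The median log2 fold change was 0.55 in the members and 0.00 over all genes. Against 0 h, 70 members were higher at 12 h and 1 lower, beside 22.1% and 21.6% of all genes, and both 12 h libraries lay above both 0 h libraries in 74, beside 43.5%.

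Between 12 h and 24 h fewer members moved. There, 26 were higher at 24 h and 0 lower, beside 3.41% higher and 3.04% lower among all genes tested, and the median log2 fold change was 0.27 against 0.01 over all genes. Without 12 h replicate 1 the count of higher members was 16. Both 24 h libraries lay above both 12 h libraries in 56 members (25.1% of all genes), and they overlapped in 19. Against 0 h, all 77 were higher at 24 h and 0 lower, beside 26.1% and 24.8% of all genes. Libraries of the 2 times were separated upward in 77 members and downward in 0, beside 45.9% and 29.1%, and the rule itself sets these counts.

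By these calls the late risers fell into 4 kinds. A call as higher from 6 h to 12 h with none after it was seen in 42 members, beside 9.27% of all genes. Calls in both steps were seen in 15, beside 1.19%. A call only from 12 h to 24 h was seen in 11, beside 2.22%. The other 9 passed in neither step, among them Hist2h2be, Spink2, Lgals4 and Atat1, which are named after their values were seen. The kinds depend on level as well as timing, since a small step passes more easily where counts are high. In the order given, the median 24 h levels were 7.83, 31.0, 9.78 and 5.70 CPM. From 12 h to 24 h, Mybpc3 rose by 0.51 ± 0.18 without passing (adjusted p = 0.078), while Gtpbp2 passed with 0.23 ± 0.05 (adjusted p = 0.0054).

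**Figure D1:**
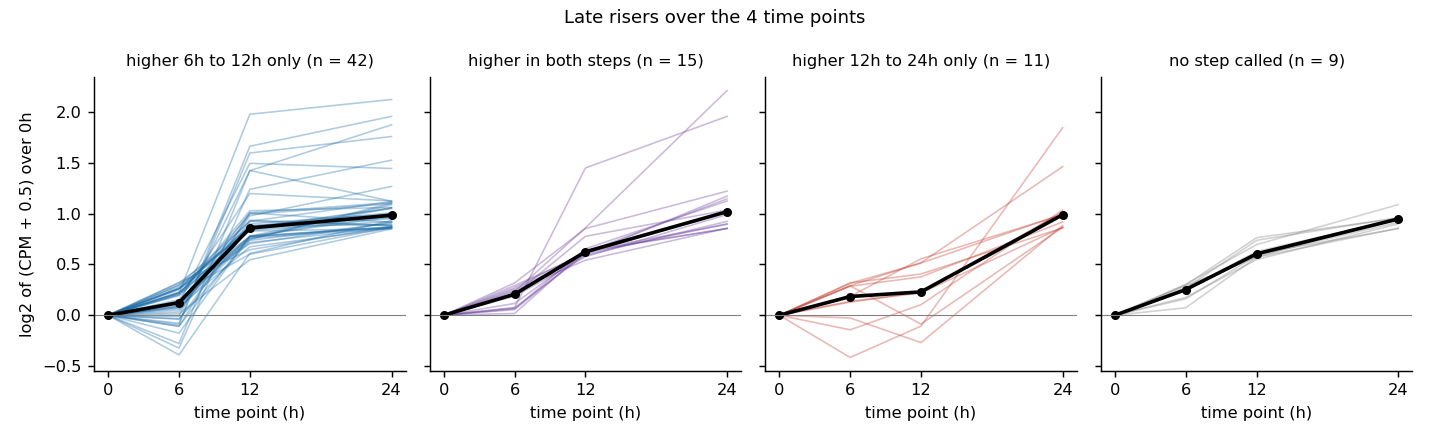
Time (h) against log2 of the ratio of mean CPM, with 0.5 added, to the 0 h mean, with 1 thin line per late riser, the median in black, and 1 panel for each kind of timing (42, 15, 11 and 9 genes). The lines of the first kind climb between 6 h and 12 h, and some climb further after it. Their share of the rise present at 12 h ranges from 57.2% to 143%. In the 11 genes called only from 12 h to 24 h that share ranges from -20.1% to 47.7%.

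The share of the 0 h to 24 h rise that was already present at 12 h put the same timing on a continuous scale. Its median over the late risers was 67.6%, with quartiles of 54.9% and 84.9%. It was 83.8% in the genes called only from 6 h to 12 h, 56.2% in those called in both steps and 19.8% in those called only from 12 h to 24 h. For comparison, the median was 94.5% in the 97 early risers, with a 6 h ratio of at least 2, and 76.0% in the 213 genes whose 6 h ratio lay between. Levels at 12 h that exceeded the 24 h level were seen in 6 late risers (7.79%) and in 41 early risers (42.3%). These are descriptions, since the 6 h and 24 h values define the groups. The 12 h values also help set the kinds, so the medians by kind follow from the sorting and add no support to it.

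**Figure D2:**
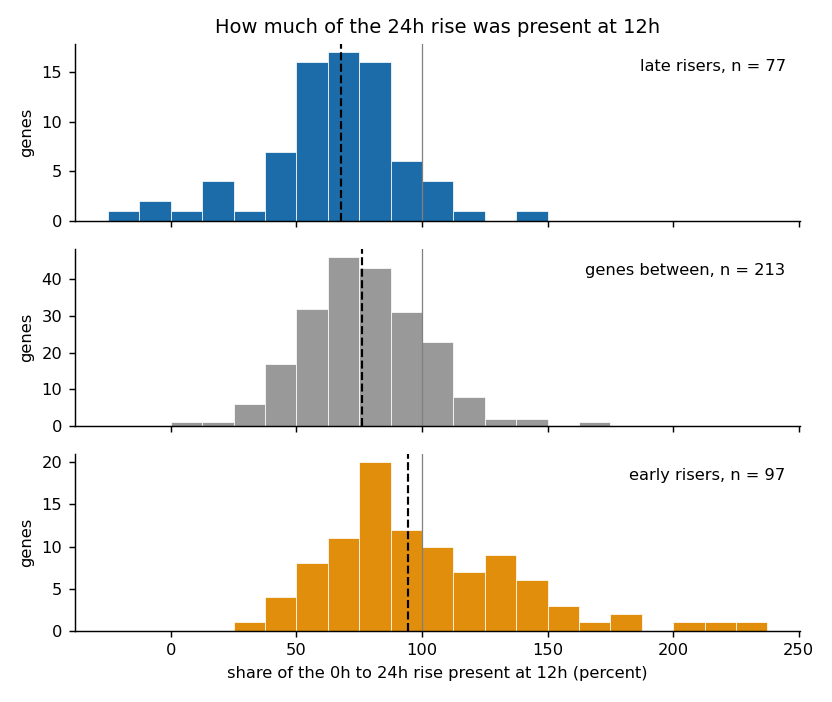
Histograms of the share of the 0 h to 24 h rise present at 12 h (percent, horizontal) by number of genes (vertical) for late risers (n = 77), the genes between (n = 213) and early risers (n = 97), with dashed lines at the medians and a grey line at 100%. The late risers centre on 67.6%, to the left of the early risers at 94.5%.

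Several regulators of signalling and of mRNA decay rose by 12 h. Dusp1 encodes a phosphatase that switches off MAP kinases (chr17:26505590-26562128 in mm10, minus strand). It stood at 4.61 and 3.34 CPM at 0 h, 2.72 and 3.66 by 6 h, 11.3 and 11.7 by 12 h, and 10.5 and 7.998 by 24 h. All 4 later libraries lay above the 4 earlier ones, and 12 h was the peak. The log2 fold change from 6 h to 12 h was 1.799 ± 0.16 (SE, adjusted p = 8.8e-11), and from 12 h to 24 h it was -0.31 ± 0.13 (adjusted p = 0.16). Without 24 h replicate 1 the second step passed as a fall (adjusted p = 0.042). Exons of Dusp1 overlap those of Ergic1 on the opposite strand, a gene at 138 CPM at 0 h and 140.1 at 24 h. The strand setting of the counting is not given in the sources used here, so reads of overlapping genes cannot be told apart.

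Zfp36 encodes tristetraprolin, which promotes decay of AU-rich mRNAs (chr7:28376784-28380253, minus strand). It stood at 26.3 and 26.0 CPM at 0 h, 28.5 and 27.3 by 6 h, 52.7 and 53.6 by 12 h, and 47.1 and 52.5 by 24 h. The 12 h and 24 h libraries lay well above the earlier ones. The step from 6 h to 12 h was 0.90 ± 0.06 on the log2 scale (adjusted p = 5.2e-13), and the step after it was -0.09 ± 0.06 (adjusted p = 0.41). Ier3, an immediate early response gene, showed 7.35 and 7.88 CPM at 0 h, 6.25 and 7.82 by 6 h, 13.6 and 13.2 by 12 h, and 16.8 and 14.0 by 24 h. Its 6 h to 12 h step was 0.88 ± 0.12 (adjusted p = 1.1e-06).

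Ppp1r15a encodes GADD34, which directs protein phosphatase 1 to eIF2α and so restores translation (chr7:45522916-45526268, minus strand). Its values were 7.70 and 7.52 CPM at 0 h, 9.17 and 6.92 by 6 h, 20.6 and 22.8 by 12 h, and 30.7 and 31.3 by 24 h. It climbed in both steps with no overlap between neighbouring time points after 6 h, by 1.41 ± 0.10 (adjusted p = 6.2e-13) and then by 0.52 ± 0.08 (adjusted p = 3.3e-05). The list of immediate early genes holds Ppp1r15a, Dusp1, Ier3 and Zfp36, and 31 of its genes were tested. From 6 h to 12 h, 18 of the 31 were higher and 1 lower, with a median of 0.32 on the log2 scale. From 12 h to 24 h, 7 were higher and 0 lower, with a median of 0.03. As compiled here, the list of ATF4 and amino acid response genes holds neither Ppp1r15a nor any other late riser. Most of that list had already moved at 6 h, with 35 of 39 higher and 1 lower than at 0 h. Over all genes tested, those shares were 9.74% and 8.58%. The list had 24 of 39 higher from 6 h to 12 h and 32 of 39 higher from 12 h to 24 h. Over all genes tested, 10.9% were higher and 9.79% lower from 6 h to 12 h. From 12 h to 24 h, 3.41% were higher and 3.04% lower.

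Nfkbiz encodes IκBζ, a nuclear co-regulator of NF-κB (chr16:55811375-55838899, minus strand). It stood at 1.77 and 2.27 CPM at 0 h, 2.24 and 2.61 by 6 h, 8.30 and 10.5 by 12 h, and 10.3 and 10.6 by 24 h. The rise lay between 6 h and 12 h, at 1.91 ± 0.16 (adjusted p = 3.6e-11), and the 12 h and 24 h libraries overlapped (0.16 ± 0.12, adjusted p = 0.54). In the NF-kB pathway and target list, 3 of 19 tested genes were higher at 12 h than at 6 h and 2 lower. Over all genes the shares were 10.9% and 9.79%. Nfkbiz is itself among the 3, and the list counts lie near the shares over all genes, so nothing is read from them.

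Trib1, a pseudokinase that brings C/EBPα to the ubiquitin ligase COP1, climbed between 6 h and 12 h. Its values were 2.45 and 2.40 CPM at 0 h, 1.81 and 1.87 by 6 h, 6.51 and 6.32 by 12 h, and 7.83 and 8.04 by 24 h. The 6 h libraries were the lowest and the 24 h libraries the highest. The 6 h to 12 h step was 1.76 ± 0.18 (adjusted p = 1.7e-09). Btg1, an antiproliferative protein in the same list of FOXO and growth arrest genes, stood at 26.0 and 23.6 CPM at 0 h, 25.4 and 24.9 by 6 h, 38.5 and 39.3 by 12 h, and 44.5 and 48.8 by 24 h. It rose by 0.60 ± 0.07 (adjusted p = 5.2e-08) and then by 0.26 ± 0.06 (adjusted p = 0.0070). The second call was lost without 12 h replicate 1 (adjusted p = 0.10), 12 h replicate 2 (0.072) or 24 h replicate 2 (0.18), and with DESeq2 (0.070). In that list 9 of 27 tested genes were higher from 6 h to 12 h and 1 lower, beside 10.9% and 9.79% of all genes. From 12 h to 24 h, 6 were higher and 1 lower, beside 3.41% and 3.04%.

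Among stress and damage genes, Plk3, a stress-responsive polo-like kinase, rose by 0.88 ± 0.13 from 6 h to 12 h (adjusted p = 8.9e-06) from 5.35 and 5.17 CPM to 10.3 and 9.44. Ddb2, a subunit of the complex that recognises UV damage, rose by 0.75 ± 0.20 (adjusted p = 0.0076) from 2.20 and 2.53 to 3.36 and 4.83. The Ddb2 call was lost without 12 h replicate 2 (adjusted p = 0.23), and its exons overlap those of Acp2 on the opposite strand. In the list of p53 targets that holds both, 4 of 32 genes were higher from 6 h to 12 h and 6 lower. Among all genes tested, 10.9% were higher and 9.79% lower.

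Hoxa2, Mybpc3, Rnf225 and Mroh2a also rose between 6 h and 12 h. Hoxa2, an anterior homeobox gene of the HoxA cluster best known for hindbrain patterning (chr6:52162417-52164831, minus strand), stood at 1.37 and 1.47 CPM at 0 h, 1.43 and 1.21 by 6 h, 5.28 and 5.89 by 12 h, and 6.87 and 7.05 by 24 h. The early and late libraries did not overlap, and the step from 6 h to 12 h was 2.06 ± 0.20 (adjusted p = 1.0e-09). Mybpc3, the cardiac myosin-binding protein C, rose from 0.812 and 1.13 CPM at 6 h to 3.36 and 3.59 at 12 h, by 1.78 ± 0.24 (adjusted p = 1.1e-06). Rnf225, a ring finger protein, rose from 4.44 and 3.46 CPM to 14.7 and 12.98, by 1.79 ± 0.13 (adjusted p = 6.7e-13). Mroh2a rose from 9.50 and 9.14 to 24.6 and 25.5, by 1.40 ± 0.09 (adjusted p = 4.5e-14), the smallest p of the 77 in that comparison. Its next step was -0.05 ± 0.08 (adjusted p = 0.79).

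Prex1, Daam2, Mid1 and Cd9 rose in the same step. Prex1, an exchange factor that activates Rac, went from 111 and 113 CPM at 6 h to 157 and 154 at 12 h, by 0.44 ± 0.05 (adjusted p = 3.6e-09), and was at 167 in both 24 h libraries. Daam2, a formin, rose by 1.15 ± 0.18 (adjusted p = 1.1e-05) and Mid1, a microtubule-associated ubiquitin ligase, by 1.07 ± 0.20 (adjusted p = 0.00014). Cd9, a tetraspanin, rose by 0.61 ± 0.09 (adjusted p = 3.0e-06). In the list of integrins and adhesion molecules that holds Cd9, 7 of 28 genes were higher from 6 h to 12 h and 4 lower. Among all genes tested, 10.9% were higher and 9.79% lower.

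Nuclear factors among the members also moved by 12 h. Kmt2d, a histone H3 methyltransferase active at enhancers, stood at 156 and 146 CPM at 0 h, 199 and 164 by 6 h, 245 and 252 by 12 h, and 277 and 274 by 24 h. The 12 h and 24 h libraries lay above all earlier ones, and the 6 h libraries lay above 0 h. Its 6 h to 12 h step was 0.43 ± 0.05 (adjusted p = 1.0e-07) and the next was 0.15 ± 0.05 (adjusted p = 0.064). Tcf7l2, a transcription factor of Wnt signalling, rose by 1.11 ± 0.23 (adjusted p = 0.00059), and Banp, a nuclear DNA-binding protein, by 0.83 ± 0.08 (adjusted p = 2.5e-10). Stx11, a SNARE protein of cytotoxic and myeloid cells, rose by 0.49 ± 0.09 (adjusted p = 0.00022). The members of this kind not described singly moved by 0.30 (Inpp5a) to 1.27 (Col7a1) on the log2 scale from 6 h to 12 h. Among chromatin regulators, 17 of 54 tested genes were higher at 12 h than at 6 h and 5 lower. The shares over all genes were 10.9% and 9.79%.

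Genes called in both steps included the most abundant RNAs per length, and a high level itself makes a call easier to reach. Per kilobase of exon, the 24 h level was 201 CPM for Tmsb10, 63.0 for H2afx, a histone H2A variant that is phosphorylated at DNA breaks, and 28.4 for Capg, which caps actin filaments. Tmsb10 stood at 106 and 114 CPM at 0 h, 129 and 144 by 6 h, 200.3 and 197 by 12 h, and 263 and 250.4 by 24 h. The libraries of each time point lay above those of the one before, and the 2 steps were 0.50 ± 0.05 (adjusted p = 7.5e-10) and 0.37 ± 0.05 (adjusted p = 5.0e-07). H2afx rose by 0.36 ± 0.06 (adjusted p = 1.0e-05) and 0.42 ± 0.05 (adjusted p = 3.2e-07).

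Capg rose by 0.54 ± 0.06 (adjusted p = 2.6e-08) and 0.26 ± 0.06 (adjusted p = 0.0022), and the second call was lost without 12 h replicate 1 (adjusted p = 0.056). Gtpbp2, a GTPase linked to ribosome rescue, rose by 0.48 ± 0.06 (adjusted p = 1.2e-07) and 0.23 ± 0.05 (adjusted p = 0.0054), and the second call was lost without 12 h replicate 1 (0.14) or 24 h replicate 2 (0.073). Vcan, a large proteoglycan that monocytes also make, rose by 0.55 ± 0.10 (adjusted p = 6.6e-05) and 0.42 ± 0.08 (adjusted p = 0.0011). Dqx1 rose by 0.55 ± 0.15 (adjusted p = 0.0063) and 0.61 ± 0.13 (adjusted p = 0.0015). Its first call was lost without 6 h replicate 2 (0.19) or 12 h replicate 2 (0.074), and its second without 24 h replicate 2 (0.075). The list of actin regulators that holds Tmsb10 and Capg had 10 of 47 genes higher and 11 lower from 6 h to 12 h. After it, 6 were higher and 5 lower. The shares over all genes were 10.9% and 9.79% in the first step and 3.41% and 3.04% in the second. The largest 24 h ratio of all 77, 4.64, belonged to 6430548M08Rik, a predicted gene named after its values were seen.

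The 11 members called only in the step from 12 h to 24 h include Cybb, Tlr2, Trem1 and Ltf, all known from mature myeloid cells. In 4 of the 11, Trem1, Ltf, Dgkg and Ptprj, the 12 h level was already higher than the 0 h level (adjusted p = 0.011, 0.0093, 0.00063 and 0.0041), and Dgkg and Ptprj were also called at 6 h. Cybb encodes the catalytic subunit of the phagocyte NADPH oxidase (chrX:9435252-9487771, minus strand). It stood at 2.35 and 2.36 CPM at 0 h, 1.77 and 1.52 by 6 h, 2.34 and 1.96 by 12 h, and 9.72 and 9.84 by 24 h. Only the 24 h libraries stood apart. The 6 h to 12 h step was 0.37 ± 0.23 (adjusted p = 0.27) and the 12 h to 24 h step 2.18 ± 0.16 (adjusted p = 3.0e-12).

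Tlr2, a receptor for bacterial lipoproteins (chr3:83836272-83841767, minus strand), behaved likewise. Its values were 9.22 and 9.04 CPM at 0 h, 8.07 and 8.36 by 6 h, 10.004 and 9.69 by 12 h, and 18.9 and 19.6 by 24 h. The first 6 libraries lay between 8.07 and 10.004, and both 24 h libraries lay far above. The last step was 0.97 ± 0.10 (adjusted p = 2.8e-09) after one of 0.23 ± 0.11 (adjusted p = 0.15).

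Trem1, an activating receptor of neutrophils and monocytes, stood at 3.38 and 3.69 CPM, then 4.34 and 4.71, 5.19 and 5.34, and 7.53 and 7.59 in time order. Its libraries climbed without overlap. Of the 2 later steps, only that from 12 h to 24 h was called (0.52 ± 0.14, adjusted p = 0.014). That call was lost with DESeq2 (0.14) and without 12 h replicate 1 (0.12), 12 h replicate 2 (0.092), 24 h replicate 1 (0.066) or 24 h replicate 2 (0.092).

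Ltf, lactoferrin of secondary granules, stood at 3.24 and 3.03 CPM, 3.25 and 4.01, 5.11 and 4.57, and 6.41 and 7.01 in time order. Its last step was 0.47 ± 0.15 (adjusted p = 0.049). That call was lost with DESeq2 (0.29) and without either 0 h library (0.051 each), 12 h replicate 1 (0.11) or 2 (0.31), and 24 h replicate 1 (0.082) or 2 (0.29).

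Cd300lf, an inhibitory receptor, and Thbs1, thrombospondin 1, dipped from 6 h to 12 h before they rose. Cd300lf stood at 6.47 and 6.54 CPM at 0 h, 8.12 and 8.01 by 6 h, 5.92 and 6.28 by 12 h, and 12.3 and 12.2 by 24 h. The 12 h libraries were the lowest and the 24 h libraries the highest. For Cd300lf, 12 h was not called different from 0 h (log2 fold change -0.16 ± 0.13, adjusted p = 0.35). Its first step was a fall (log2 fold change -0.44 ± 0.13, adjusted p = 0.012), followed by a rise of 1.01 ± 0.12 (adjusted p = 8.0e-08). The dip was not called without 6 h replicate 2 (0.056) or 12 h replicate 1 (0.077), nor with DESeq2 (0.075).

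Thbs1 (chr2:118111876-118127133, plus strand) stood at 74.3 and 80.4 CPM at 0 h, 75.5 and 76.4 by 6 h, 63.0 and 65.2 by 12 h, and 141 and 145 by 24 h. It was lower at 12 h than at any other time and highest at 24 h. The steps were -0.28 ± 0.05 (adjusted p = 0.00019) and 1.16 ± 0.05 (adjusted p = 2.4e-19), and it was the 1 member called lower at 12 h than at 0 h. Dgkg, a diacylglycerol kinase, was higher at 24 h than at 12 h by 0.55 ± 0.07 (adjusted p = 2.5e-07).

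**Figure D3:**
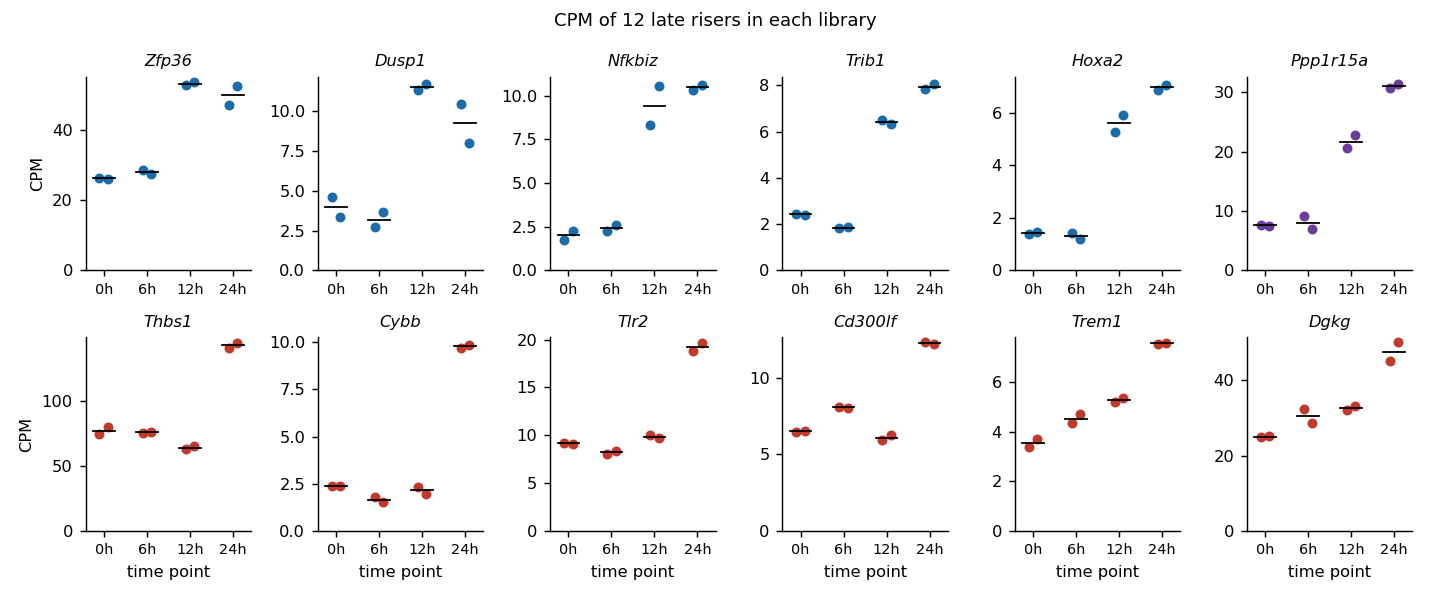
CPM (vertical, from 0) of 12 late risers in each of the 8 libraries by time point, with 1 point per library and a bar at the mean. Zfp36, Dusp1, Nfkbiz, Trib1, Hoxa2 and Ppp1r15a are high by 12 h, and Thbs1, Cybb, Tlr2, Cd300lf and Dgkg are highest at 24 h, while Trem1 climbs at each time point.

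**Figure D4:**
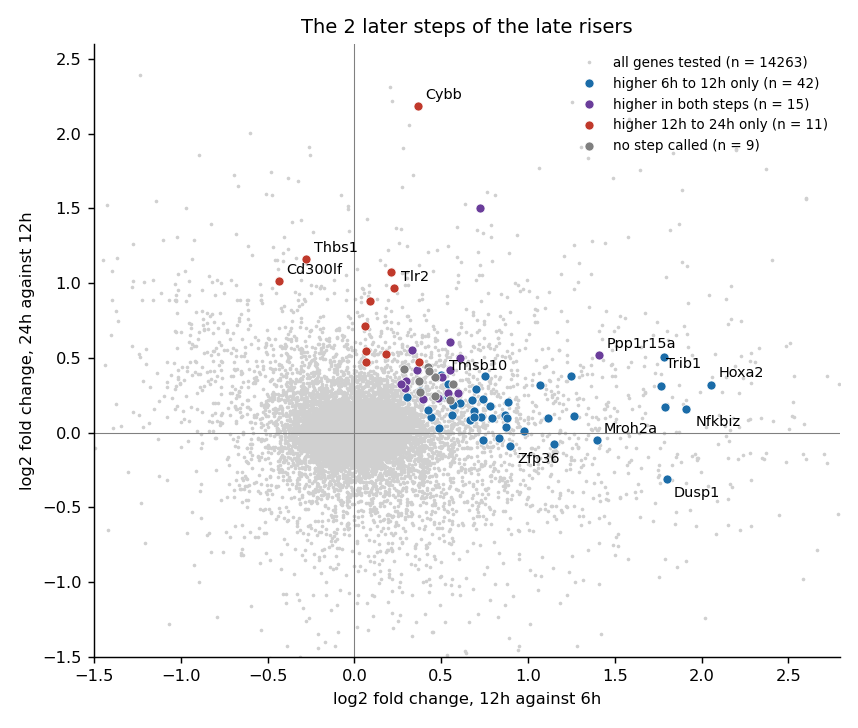
Log2 fold change from 6 h to 12 h (horizontal) against that from 12 h to 24 h (vertical), with late risers coloured by kind over all 14263 genes tested in grey (93 of those lie outside the axes). Hoxa2, Nfkbiz and Trib1 lie far to the right near 0 on the vertical axis, Cybb lies at the top, and Ppp1r15a is high on both.

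Markers of other cell types and of maturation were measured beside these genes, since fewer cells of a type and less RNA per cell cannot be told apart in bulk RNA. The list of mature neutrophil markers, which holds Ltf, summed to 108 to 114 CPM at 0 h, 106 to 116 (6 h), 120 to 126 (12 h) and 159 to 160 (24 h). All 12 of its genes had counts, and 5 of 11 tested were higher from 12 h to 24 h and 0 lower. In that step 3.41% of all genes tested were higher and 3.04% lower. The list of late neutrophil granule and surface genes, 19 tested, had 6 higher in that step and 0 lower, with a median of 0.41. The list of monocyte and macrophage genes had 8 of 22 higher and 1 lower. The lectin-like and inhibitory receptors with Trem1 and Cd300lf had 9 of 30 higher and 1 lower. From 0 h to 24 h, the monocyte list had 10 higher and 9 lower and the lectin-like list 13 and 7. The mature neutrophil list had 8 higher and 2 lower there, and the late granule list 15 and 2. Of all genes tested, 26.1% were higher and 24.8% lower in that comparison.

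Innate sensing genes, with Tlr2, had 2 of 21 higher and 1 lower after 12 h, beside 3.41% and 3.04% of all genes. Primary granule genes summed to 6062 to 6273 CPM at 0 h and 4340 to 4381 at 24 h. Of 10 tested, 1 was higher and 8 were lower at 24 h than at 0 h, beside 26.1% and 24.8% of all genes. Erythroid markers summed to 404 to 417 CPM at 0 h and 260 to 277 at 24 h. The sums of B cell markers were 26.2 to 26.4 and 19.2 to 20.0. Those of T and NK cell markers were 13.04 to 14.0 and 22.8 to 23.5, with 7 of 16 at 0 in all libraries. Few of the erythroid, B cell and T and NK cell markers were tested. At 24 h against 0 h, 0 of 5 erythroid markers were higher and 1 lower. For B cells it was 1 of 4 higher and 2 lower, and for T and NK cells 2 of 3 and 0. The sums of these cell type markers are therefore not read as a change of whole lists. Monocyte-type summed levels were 965 to 979 CPM at 0 h and 1049 to 1053 at 24 h. Their part in the late rise was not tested.

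Of the 77 late risers, 55 belong to none of the 51 lists and 22 to at least 1, and 16 of the lists hold a member. Shares over all genes are not given here for list membership, close pairs or exon overlaps. Nothing is therefore read from these counts. There were 14 pairs less than 1 Mb apart, of which the nearest were Ier3 and Atat1 on chromosome 17 (74.7 kb) and Mybpc3 and Ddb2 on chromosome 2 (75.1 kb). In 28 members an exon overlaps an exon of another gene, and in 12 that gene reached 1 CPM at 0 h or 24 h. In each of the 12 the other gene lies on the opposite strand. They are Acvr2a, Atat1, Ddb2, Dusp1, Inpp5a, Map3k12, Mid1, Paqr3, Ppp1r15a, Spred3, Tgm2 and Tmem243. For Inpp5a, the overlapping Nkx6-2 had a mean of 7.02 CPM at 0 h and 22.1 at 24 h, beside 12.49 and 23.3 for Inpp5a itself.

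Length and base composition of the members are given as medians, with no test. Their median merged exon length was 5018 bases, beside 4625 over the 9951 genes at the level limits and 4480 in the early risers. Median exon GC was 52.8%, beside 49.5% and 56.6%. Of the 77, 61 matched the RefSeq promoter table (250 bases before to 50 after the start). Their median promoter GC was 60.7%, beside 61.3% over 8032 promoters, and the observed to expected CpG ratio was 0.655, beside 0.794. The 9 promoters of genes called only from 12 h to 24 h had a ratio of 0.384.

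Short motifs were counted on both strands of those promoters. CACCC was present in 42 of 61 (68.9%, 95% Wilson interval 56.4% to 79.1%), beside 80.6% of 72 early riser promoters and 62.4% of all 8032. GGGNGTGG was present in 29.5%, 33.3% and 23.7%. GGGCGG was present in 68.9%, 70.8% and 67.5%, the AP-1 motif TGANTCA in 4.92%, 4.17% and 4.23%, and TGACG, part of the CRE motif, in 27.9%, 13.9% and 33.8%. The interval of the late risers contains the share over all promoters for CACCC and GGGNGTGG. A match is a description of the letters, and says nothing of binding.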

How the data were processed

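Total RNA of 8 libraries, 2 at each of 4 time points, was sequenced from a paired-end kit per the labels' protocols. The deposited files give whole-number read counts per gene, not normalized by the authors. The submitters' processing notes name STAR, SAMtools 1.3, HTSeq 2.0.3 and the build mm10, and the strand setting is not given in the sources used here. Summary rows were left out of library totals. Of 47069 gene rows, 46574 matched GENCODE M21, which gave the symbols, biotypes, exons and mm10 positions. The libraries hold 20394546 to 26041347 counts assigned to genes.

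CPM is the count over the library's gene total. Tests were made with edgeR 4.0.16 in R 4.3.3 (TMM, filterByExpr, quasi-likelihood). All 8 libraries were in 1 fit with 4 residual degrees of freedom. Benjamini-Hochberg adjustment was over 14263 genes, with a threshold of 0.05. The test was also run on counts simulated with the same spread for all genes. That run cannot show how the calls hold where the spread differs between genes. Genes named in the text are the 12 largest 24 h ratios, the 12 highest 24 h CPM per kilobase, the 5 smallest p in each direction of each later step, up to 4 members per gene list and 3 genes each side of each threshold, without predicted genes. DESeq2 1.42.0, other scalings and filters, a replicate block and leaving out each library were the alternatives. Promoters come from RefSeq (GRCm38.p6). Members, lists and rules were chosen with earlier results of these data known. The values of 1 member are not reported here.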

Additional observations from a re-analysis of the deposited data

Results flagged for a closer look

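Fragments that HTSeq assigned to no gene feature appear outside the gene counts. They made up 9.15% ± 0.167 (SD, n = 2) of all fragments at 24 h and 8.63% ± 0.452 at 12 h, beside 6.21% ± 0.556 at 6 h and 5.47% ± 0.316 at 0 h. The value at 24 h lay above both 0 h libraries. Groups of 2 libraries are too small for a check of single libraries against their group.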

How the results depend on the processing

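The number of late risers depended on the thresholds: 33 with a 6 h ceiling of 1.1, 33 with a 24 h ratio of 2, 130 at a 24 h level of 1 CPM and 37 at 10 CPM. With TMM-scaled CPM it was 60 (52 shared), with a pseudocount of 1 it was 61 (54 shared), with 0.1 it was 82 (69 shared), and without 1 library 63 to 86 (48 to 70 shared). When tested against a fold of 1.5, 0 members were higher at 6 h than at 0 h, 17 higher and 0 lower at 12 h than at 0 h, 11 higher and 0 lower at 12 h than at 6 h, and 5 higher at 24 h than at 12 h. DESeq2 called 3 higher at 6 h than at 0 h (10 in the main fit) and 64 higher at 12 h than at 0 h (70). It called 44 higher (57) and 1 lower (2) at 12 h than at 6 h, and 19 higher at 24 h than at 12 h (26). The GC and length correction gave 1 lower at 6 h than at 0 h. Without 1 library each, the higher count was 3 to 10 for 6 h against 0 h, 43 to 58 for 12 h against 6 h and 16 to 27 for 24 h against 12 h, and the lower count was 1 to 2 for 12 h against 6 h and 0 to 1 for 24 h against 12 h. For these counts the cause was not tested. Replicate numbers did not pair the libraries (correlations of -0.017 to 0.021), and a fit with a replicate block gave 56 higher and 2 lower for 12 h against 6 h and 25 higher for 24 h against 12 h. Of 1120 values of named genes under alternatives, 1056 kept their call, 59 lost it, 5 gained one and 0 reversed. The call of Ltf from 12 h to 24 h was lost in 10 of them and that of Trem1 in 6.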
